A study of Arabidopsis thaliana with 12 samples.

Results

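Seedlings of an Arabidopsis thaliana line that over-expresses Zat12 were given hydrogen peroxide (H2O2), and their transcripts are described here by function. The response was measured on 6 of the 12 arrays of the study, namely 3 arrays of Zat12 seedlings given 20 mM H2O2 for 1 hour and 3 arrays of untreated Zat12 seedlings, chosen by their labels. All seedlings were 5 days old, of the Columbia background, and had grown in liquid MS culture. The Zat12 line carries the zinc finger gene behind the constitutive CaMV 35S promoter, so the transgene is present in treated and untreated groups alike and is not restricted to a cell type. The labels do not say how many insertion lines were used, what the untreated seedlings received, or whether replicates came from separate cultures, so p-values cover only how far these arrays differ among themselves, and that spread may be technical. The other 6 arrays, 3 of wildtype and 3 of wildtype given H2O2 in the same way, served to estimate the spread and to test whether the response differed between the genotypes.

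Hydrogen peroxide is produced in chloroplasts, mitochondria, peroxisomes and the cell wall, and at a high level it oxidises proteins and lipids. Plant cells answer with chaperones that hold damaged proteins, with enzymes that reduce or conjugate reactive carbonyls and other toxic products, and with calcium and transcription factor signalling that overlaps with defence. Zat12 is a C2H2 zinc finger protein of this stress response. In the cell wall, class III peroxidases use or make H2O2 while expansins and extensins shape growing root hairs.

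Each value is the authors' MAS5 signal, a brightness per probe set on a linear scale, after the authors had scaled each array to a common average. Fold changes are differences of log2(signal + 3), where 3 is an offset that keeps dim probe sets from dominating and understates their change. Of 22746 probe sets other than controls, 13647 were bright enough to be tested, by their mean over all 12 arrays, and 7360 of these had exactly 1 named gene. A gene that was dark without treatment could enter only through its treated level, so counts of tested members describe a gene group and do not support it. Untreated Zat12 replicate 2 held no value for 6394 of the 22746 probe sets, and those cells stayed empty, so that the untreated mean then rests on replicates 1 and 3. Where it was empty the other untreated arrays had a median signal of 42.9, against 43.5 where it was filled. No probe set was named as Zat12 in the annotation used here, so the over-expression itself was not checked. Of the tissue markers, 5 nuclear photosynthesis genes were measured and none was called, at log2 fold changes from -0.16 to 0.01; RCA, which activates Rubisco, had signals of 6554 to 7349.8 untreated and 6764 to 7403 treated. EXPA7 was the only root marker measured and fell with H2O2, at -1.18 (SE 0.18, adjusted p = 9.42e-05) on the log2 scale, and seed and floral markers were not analysed here. The control for 25S ribosomal RNA had a signal of 96.3 to 275 on the untreated and 133 to 286 on the treated Zat12 arrays, and the ratio of the 3′ to the 5′ actin control was 4.23 to 5.56 and 4.49 to 6.02, so that neither separated the groups. The first principal component of these 6 arrays held 71.8% of the variance, and the treated arrays lay at 30.2, 24.2 and 31.1 on it, all apart from the untreated ones.

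H2O2 raised 1114 probe sets (8.16% of those tested) and lowered 1244 (9.12%) in Zat12 seedlings, together 17.3%, at an adjusted p below 0.05 in limma. A transcript is said to rise or fall where it met this threshold, also where no p-value is printed. The shares of 8.16% and 9.12% are the background for the counts of every gene group below. The rises were larger than the drops. The median log2 fold change was 0.99 among raised and -0.59 among lowered probe sets, and -0.09 over all those tested. At least 2-fold, 550 rose (4.03%) and 114 fell (0.835%), and at least 4-fold, 213 rose and 10 fell. Without untreated replicate 1 the count of lowered probe sets was 825. Treated replicate 2 gave the lowest treated signal for 263 of the 550 and the highest for 67 of the 114, so it stood nearest to the untreated arrays more often than the others; over all tested probe sets it was lowest for 3897 and highest for 5065. Groups of arrays did not overlap for 5403 probe sets, 39.6% of those tested, so a lack of overlap alone says little about a single gene.

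STZ, a C2H2 zinc finger repressor also known as ZAT10, had the largest rise among named genes with a mean signal of at least 20 in both groups. Its signals were 26.5, 54.4 and 36.0 in untreated seedlings and 1484, 1481 and 1338 under H2O2, a log2 fold change of 5.15 (SE 0.26, adjusted p = 9.07e-11). The 3 treated arrays lay close together and far above all untreated ones. AT4G01870, a protein related to TolB, was brighter at the start: 130.3 and 105 (replicates 1 and 3) became 2542, 2091 and 2851, a log2 fold change of 4.37 (SE 0.19, adjusted p = 4.00e-11). AT4G24160, an acyltransferase of lipid metabolism with an alpha/beta hydrolase fold, went from 67.7, 77.2 and 67.2 to 1077, 936 and 1098, and its log2 fold change was 3.82 (SE 0.11, adjusted p = 6.35e-14). Its 3 arrays in each group lay close together, and the standard error was the smallest of the 15 largest rises.

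AT3G16530, a lectin with a legume lectin domain that is known to respond to chitin, was the brightest of these genes before treatment. Its signals of 257, 268 and 269 rose to 2799, 2444 and 3252, by 3.39 (SE 0.16, adjusted p = 2.36e-11) on the log2 scale. AT5G27760, of a hypoxia-responsive family, had 106 and 118 (replicates 1 and 3) before and 1337, 1003 and 1638 after treatment, a log2 fold change of 3.51 (SE 0.17, adjusted p = 1.12e-10). GSTU25, a tau class glutathione transferase that conjugates glutathione to toxic compounds, rose from 24.99, 29.35 and 25.01 to 400.3, 281 and 419, with a log2 fold change of 3.63 (SE 0.16, adjusted p = 1.20e-11). For both, treated replicate 2 was the lowest treated array and was still well above the untreated ones. The other named rises were those of AT1G05575 (4.44), AT1G54050 (4.13), AT1G19020 (4.02), AT5G35735 (3.87), AR781 (3.74), AT1G76600 (3.58), AT2G36220 (3.53), AT5G37670 (3.19) and XTH18 (3.17). Of these, AT1G54050 and AT5G37670 are small heat shock proteins and XTH18 modifies cell wall xyloglucan.

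**Figure D1:**
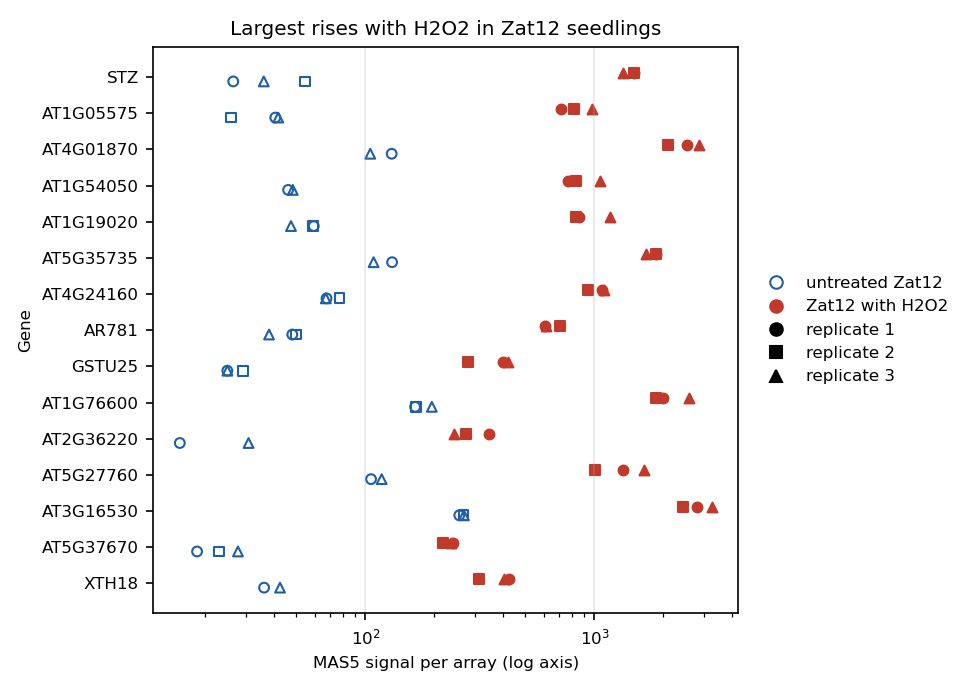
MAS5 signal on each array (log axis) of the 15 named genes with the largest rises, with open symbols for untreated Zat12, filled symbols for Zat12 with H2O2, and a shape for each replicate. Treated and untreated arrays are apart for every gene because only genes without overlap were chosen. A missing open square is an empty cell of untreated replicate 2.

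Small heat shock proteins, which keep unfolding proteins from clumping, made up the most strongly raised group. Of the 8 tested, out of 9 with a named probe set, 7 rose and 0 fell, with a median log2 fold change of 3.66 against -0.09 over all probe sets. AT5G51440, a mitochondrial member, had signals of 3.54, 7.48 and 2.47 without and 325, 317 and 399.9 with H2O2. The cytosolic AT1G53540 had 14.2 and 12.8 (replicates 1 and 3) and then 847, 496 and 832. AT2G29500, also cytosolic, went from 17.4, 14.3 and 26.7 to 714, 501 and 824. These 3 genes were dim before treatment and bright on every treated array, with treated replicate 2 the lowest each time. Their log2 fold changes were 5.59 (SE 0.30, adjusted p = 1.60e-10), 5.42 (SE 0.30, adjusted p = 6.23e-10) and 4.93 (SE 0.21, adjusted p = 8.15e-12). Because the untreated signals are low, these sizes move with the offset: from 4.45 to 6.42 for AT5G51440, 4.81 to 5.71 for AT1G53540 and 4.45 to 5.15 for AT2G29500. AT1G54050 had a firmer base, with 46.0 and 48.2 (replicates 1 and 3) before and 768, 829 and 1055 after treatment, and the peroxisomal AT5G37670 went from 18.4, 22.9 and 27.8 to 241, 219 and 237. ATHSP22.0, of the endoplasmic reticulum, rose by 2.00 and AT2G19310 by 1.30, while AT4G21870 was not called, at -0.04. AT5G51440, AT1G53540, AT2G29500 and AT5G37670 had untreated means under the filter of 28.1 in both genotypes. These members were tested only because of their treated level.

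Large chaperones and their co-chaperones rose with them, 8 of 9 with 0 falling and a median log2 fold change of 1.14. Fes1A, a partner of Hsp70, had signals of 75.7, 73.2 and 79.8 in untreated and 799, 527 and 698 in treated seedlings, a log2 fold change of 3.08 (SE 0.14, adjusted p = 1.64e-11). AT5G48570, a peptidyl-prolyl isomerase of the FKBP type, went from 15.4, 19.6 and 22.3 to 388, 272 and 376, with 3.97 (SE 0.24, adjusted p = 7.61e-10), or 3.51 to 4.17 depending on the offset. In each of these genes the groups were far apart and treated replicate 2 was again the lowest treated array. The J-domain protein AT2G20560 rose by 2.95 and Hop3, which links Hsp70 to Hsp90, by 2.91. Hsp70 members rose less, AT3G09440 by 1.14 and Hsp70-2 by 0.66. HSA32, known for acquired heat tolerance, rose by 0.93 and Hop2 by 0.54, while Hop1 was not called, at -0.11. All 9 with a named probe set passed the filter. AT5G48570, AT2G20560 and Hop3 had untreated means under the filter of 28.1 in both genotypes. These members were tested only because of their treated level, so the count does not support the group.

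The few folding genes of the endoplasmic reticulum that could be tested showed no such shared rise. Of 15 listed genes only 4 had a named probe set, and all 4 were tested. Of these, 1 rose and 1 fell, and the median was -0.16. The gene that rose was BZIP60, the membrane-anchored transcription factor of the unfolded protein response, with 173, 133 and 148 before and 349, 349.8 and 348 after treatment, a log2 fold change of 1.19 (SE 0.13, adjusted p = 1.29e-06). The calreticulin CRT1b, a folding helper of the lumen, fell slightly, from 531, 609.5 and 526 to 436, 455 and 404, with -0.36 (SE 0.11, adjusted p = 0.038). That call was lost with median centring (adjusted p = 0.0786), without the mean-variance trend (0.0715) and without untreated replicate 1, 2 or 3 or treated replicate 1 or 3.

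Transcription factors of stress signalling rose in part. Of 4 tested WRKY factors, out of 5 with a named probe set, which regulate defence and senescence genes, 3 rose and 0 fell, with a median of 1.11. WRKY6 went from 29.4, 47.2 and 43.9 to 235, 228 and 221, a log2 fold change of 2.44 (SE 0.17, adjusted p = 6.83e-09), with the treated arrays nearly level. WRKY22 rose by 1.34 (SE 0.17, adjusted p = 1.83e-05). WRKY53, a regulator of leaf senescence, rose by 0.89 (SE 0.28, adjusted p = 0.0366), but its treated signals of 32.8, 66.6 and 47.3 were spread widely. Its call was lost with the replicate number as a block (adjusted p = 0.0533), without a filter (0.0833), and without untreated replicate 1 (0.0907), untreated replicate 3 (0.173), treated replicate 2 (0.152) or treated replicate 3 (0.091). WRKY47 was not called, at -0.34. WRKY53 had untreated means of 24.1 in Zat12 and 16.2 in wildtype, under the filter of 28.1. It was tested only because of its treated level, so the count leans toward members that rose.

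Of 12 tested bZIP factors, out of 20 with a named probe set, 3 rose and 1 fell, with a median of -0.16. Besides BZIP60 these were BZIP53, which acts in responses to low energy, and BZIP28, also a membrane-anchored factor of the unfolded protein response. BZIP53 was bright throughout, with 459.8, 447 and 479 rising to 997, 1029 and 1064, by 1.15 (SE 0.12, adjusted p = 1.58e-06), and BZIP28 rose by 0.60 (SE 0.12, adjusted p = 0.00152). BZIP17, a further membrane-anchored stress factor, was not called, at -0.50 (adjusted p = 0.104). BZIP61 fell by 0.73 on the log2 scale (adjusted p = 0.00483). None of 5 tested bHLH factors, out of 7, was called, with a median of -0.05, and 0 had an unadjusted limma p below 0.05.

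Calmodulin-like proteins, which sense calcium through EF hands, rose in 4 of 5 tested cases with 0 falling, and the median was 2.20. Another 5 of the 10 with a named probe set were below the filter. CML38 and AT5G39670 had untreated means of 15.2 and 19.2 in Zat12 and 18.4 and 19.1 in wildtype, under the filter of 28.1. They were tested only because of their treated level, so the count and median lean toward members that rose. CML42 was the brightest, with 121, 108 and 120.0 before and 495, 505 and 652 after treatment, a log2 fold change of 2.20 (SE 0.12, adjusted p = 1.35e-10). CML38 went from 11.2, 24.2 and 10.0 to 119.7, 129 and 165, with 3.03 (SE 0.26, adjusted p = 8.34e-08), or 2.49 to 3.29 depending on the offset. Both showed treated replicate 3 as the highest array. AT5G39670 rose by 2.64 (SE 0.21, adjusted p = 5.30e-08). CML41, which sits at plasmodesmata, rose by 0.73 (SE 0.21, adjusted p = 0.0224), a call that was lost without a filter (adjusted p = 0.0598) and without untreated replicate 1 or 2 or treated replicate 3 (0.0681, 0.101 and 0.108). CML43 was not called, at 0.05.

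U-box ubiquitin ligases were split, with 3 of 9 tested (out of 11) rising and 2 falling, and a median of -0.10. The members that rose were PUB22, PUB23 and PUB24, related ligases that dampen pattern-triggered immunity. PUB23 had 51.7 and 30.4 (replicates 1 and 3) before and 184, 234 and 199 after treatment, a log2 fold change of 2.28 (SE 0.20, adjusted p = 2.42e-07). PUB24 went from 22.1 and 26.0 (replicates 1 and 3) to 124, 135 and 115, by 2.24 (SE 0.19, adjusted p = 1.44e-07). Replicate 2 held no untreated value for any of the 3, so their untreated level rests on 2 arrays. PUB24 had untreated means of 24.1 in Zat12 and 27.7 in wildtype, under the filter of 28.1. It was tested only because of its treated level. PUB22 rose by 0.48 (SE 0.15, adjusted p = 0.0293), a call lost without untreated replicate 1 or 3 (adjusted p = 0.148 and 0.0886) and without treated replicate 1 or 2 (0.055 and 0.0963). AT1G23030 fell by 0.69 (adjusted p = 0.000598) and AT1G71020 fell by 0.39. The TIR domain is the signalling domain of many immune receptors. Of 7 such proteins with a named probe set 4 were below the filter, and the 3 tested rose, with a median of 2.14. AT1G72900 went from 22.8 and 12.0 (replicates 1 and 3) to 156, 194 and 254, with 3.35 (SE 0.23, adjusted p = 1.20e-08). AT1G66090 rose by 2.14 and AT1G72940 by 1.59. AT1G72900 and AT1G66090 had untreated means of 17.4 and 19.6 in Zat12 and 7.85 and 18.0 in wildtype, under the filter of 28.1. Both were tested only because of their treated level, so this count also leans toward members that rose.

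Among detoxifying enzymes, the alkenal reductases rose in all 3 tested cases, with a median of 1.82, while 4 of the 7 carbonyl and alkenal reductases with a named probe set were below the filter. AER, which reduces the reactive aldehydes that lipid peroxidation yields, had signals of 152, 166 and 173 in untreated and 1064, 699 and 1162 in treated seedlings, a log2 fold change of 2.52 (SE 0.17, adjusted p = 4.15e-09). AT5G16980 rose by 1.82 (SE 0.15, adjusted p = 4.99e-08) and AT5G16990 by 0.72 (SE 0.17, adjusted p = 0.00592). The size differed widely among these related genes, and AER was the brightest of them in both groups. Of 8 tested glutathione transferases, out of 12, 1 rose and 1 fell, and the median was -0.08. Beside GSTU25, GSTU28 fell by 0.70 (adjusted p = 0.0371), a call lost without a filter (0.0797) and without untreated replicate 1 or 2 or treated replicate 1 or 3. GSTU25 had untreated means of 26.4 in Zat12 and 25.9 in wildtype, under the filter of 28.1. It was tested only because of its treated level.

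UDP-glycosyltransferases attach sugars to hormones, flavonoids and foreign compounds. Of 32 tested, out of 52 with a named probe set, 8 rose and 5 fell, and the median of -0.07 was near that of all probe sets. UGT73B5, known from stress and xenobiotic responses, was nearly dark at 4.49 and 12.0 (replicates 1 and 3) and reached 518, 455 and 631. Its log2 fold change was 5.65 (SE 0.26, adjusted p = 6.42e-11), or 4.77 to 6.17 depending on the offset. With untreated means of 8.23 in Zat12 and 2.17 in wildtype, UGT73B5 was tested only because of its treated level. GT72B1, which glycosylates xenobiotics and lignin precursors, went from 104, 135 and 98.1 to 504, 395 and 454, with 1.98 (SE 0.15, adjusted p = 1.36e-08). IAGLU (1.21), UGT87A2 (1.19), UGT73B1 (1.19), UGT71C5 (1.11), UGT76E11 (0.87) and UGT74B1 (0.52) rose as well. The drops were those of UGT71C1 (-1.04), UGT78D1 (-0.92), UGT78D2 (-0.86), UGT72E2 (-0.47) and UGT71C4 (-0.44). UGT72E2 was only just called in limma (adjusted p = 0.0498), with untreated values from replicates 1 and 3 alone, and UGT71C4 had 0.0198. These drops were not followed gene by gene through the alternatives. UGT78D1 and UGT78D2 glycosylate flavonols, and UGT74B1 acts in glucosinolate synthesis. Of 244 listed cytochromes P450 only 24 had a named probe set, and 8 of these were tested. All of the tested ones but CYP84A4 were CYP71B genes, so most of the family was not seen. In limma 0 of the 8 were called and 1 had an unadjusted p below 0.05, with a median of 0.02.

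Berberine bridge enzyme-like oxidases use a flavin to oxidise sugars or alcohols, and some of them release H2O2. Of 7 tested, 4 rose and 1 fell, with a median of 0.58, while 15 other members on the array were below the filter. AT1G26380, an oxidase of the synthesis of indole defence compounds, had untreated signals of 0.722, 1.05 and 0.775 and treated signals of 255, 221 and 360.3. It changed from near nothing to a clear signal on each array, and since the untreated signals lie below the offset of 3, its log2 fold change of 6.17 (SE 0.24, adjusted p = 2.69e-12) is set by that offset and was 4.47 with 4 times the offset. AT4G20830, which oxidises oligogalacturonides, went from 89.7, 93.9 and 166 to 743, 946 and 989, by 2.95 (SE 0.23, adjusted p = 1.88e-08). AT1G30700 rose by 0.97 and AT4G20860, which oxidises cellodextrins, by 0.58. AT5G44380 fell by 0.83 (adjusted p = 0.00626), a call lost without untreated replicate 3 (0.0635). AT1G26380 passed the filter only through its treated level.

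Antioxidant enzymes remove H2O2 or regenerate the reductants for it. Of 47 listed genes only 8 had a named probe set, and all 8 were tested. Of these, 1 rose and 1 fell, which is too few to set apart from the 17.3% called over all probe sets, and the median log2 fold change was 0.04. ATMDAR2, a monodehydroascorbate reductase that regenerates ascorbate, had 399.6, 432 and 419 before and 907, 693 and 849.9 after treatment, a log2 fold change of 0.96 (SE 0.12, adjusted p = 9.54e-06). GR, the glutathione reductase of plastids and mitochondria, fell by 0.38 (adjusted p = 0.0132), a call lost without treated replicate 1 (0.0602), and the cytosolic GR1 was not called, at 0.09. The chloroplast ascorbate peroxidases SAPX and TAPX had -0.35 and -0.24, and SRX, a sulfiredoxin, had 0.30, and none of these was called. APS3, an ATP sulfurylase of sulfate assimilation, went from 59.8 and 45.2 (replicates 1 and 3) to 267, 363 and 273, with 2.45 (SE 0.16, adjusted p = 4.68e-09), and was the only one of 3 genes of that pathway to be called. In limma 0 of 3 tested mitochondrial stress genes, out of 4, were called (1 at an unadjusted p below 0.05), and their median was 0.13.

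**Figure D2:**
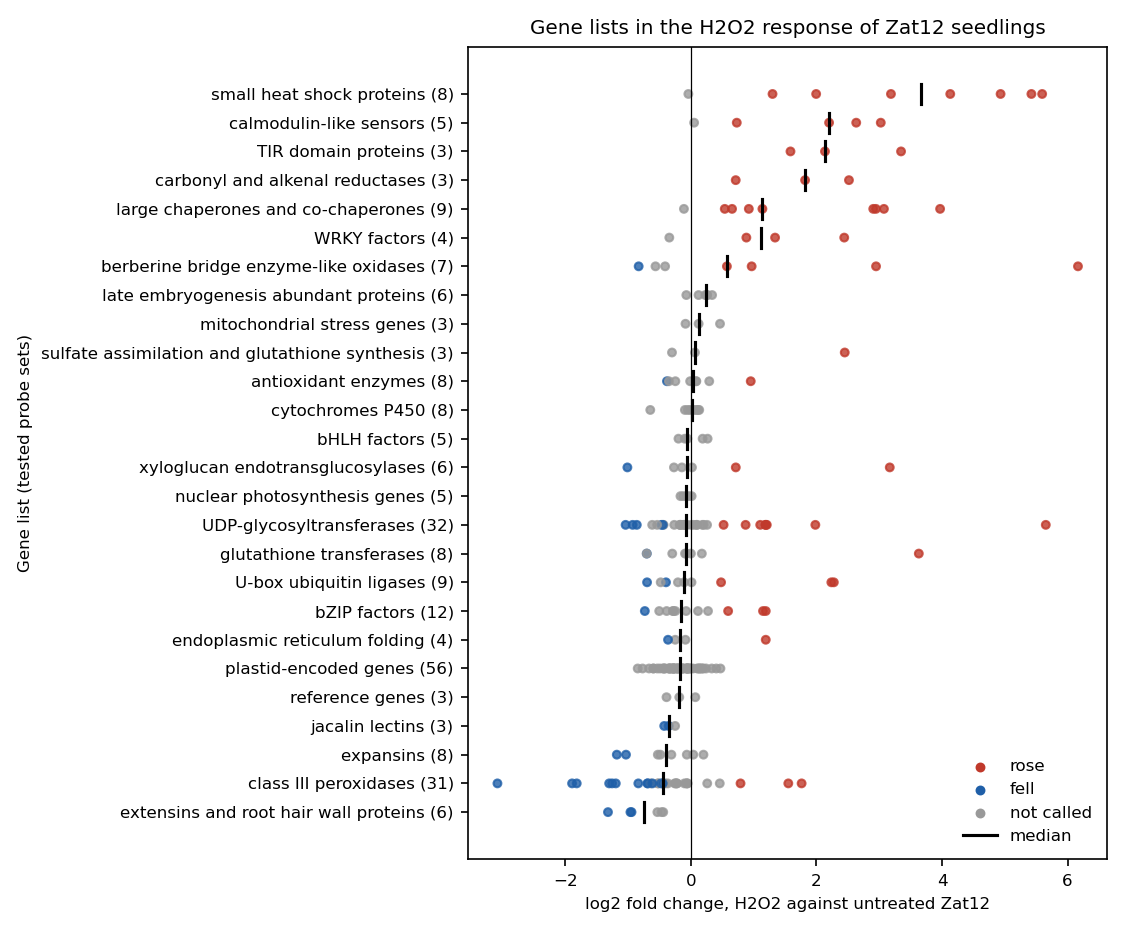
Log2 fold change of every tested member of each described gene list, H2O2 against untreated Zat12 seedlings, with members that rose in red, fell in blue and were not called in grey, and the list's median as a black bar. Small heat shock proteins lie farthest to the right, with a median of 3.66, and class III peroxidases and wall proteins lie to the left.

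Of the 15 named genes with the largest drops, 6 were class III peroxidases and others act in the cell wall. Class III peroxidases are secreted haem enzymes that use H2O2 to cross-link wall components or produce reactive oxygen. Of 31 tested, out of 55 with a named probe set, 12 fell and 3 rose, with a median log2 fold change of -0.44 against -0.09 over all probe sets. Over all tested probe sets 9.12% fell and 8.16% rose. AT4G26010 fell farthest of all genes named in the annotation, from 375, 513 and 284 to 38.2, 62.5 and 31.6, with -3.08 (SE 0.27, adjusted p = 1.24e-07). AT1G30870 went from 245, 251 and 192 to 64.4, 81.2 and 39.6, with -1.89 (SE 0.20, adjusted p = 1.62e-06). AT5G17820 had 281 and 229 (replicates 1 and 3) before and 70.9, 78.3 and 61.9 after treatment, a log2 fold change of -1.81 (SE 0.16, adjusted p = 1.81e-07). In each of these, treated replicate 2 kept the highest treated signal and remained below every untreated array. AT3G01190 fell by 1.30, AT4G30170 fell by 1.25 and AT2G37130 fell by 1.19. The bright PRXR1 fell by 0.83. The root marker EXPA7 fell as well, by 1.18, and its part in the drops of peroxidases and wall genes was not tested. In bulk seedlings, fewer cells of a type and less RNA per cell cannot be told apart.

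The peroxidases that rose were AT4G33420, AT5G39580 and Prx37. AT4G33420 went from 80.2, 76.4 and 90.0 to 270.3, 299.8 and 289, with 1.77 (SE 0.13, adjusted p = 1.32e-08). AT5G39580 rose by 1.55 and Prx37 by 0.79. With 3 of 31, the rises were too few to set apart from the 8.16% raised over all tested probe sets, and 16 members were not called.

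**Figure D3:**
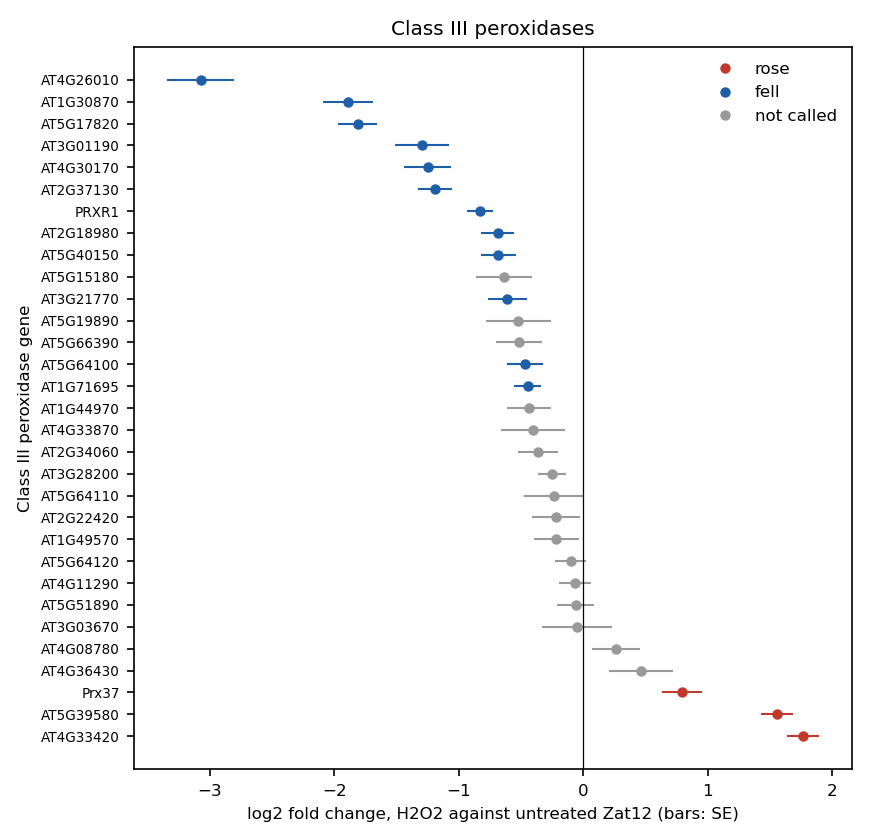
Log2 fold change with H2O2 in Zat12 seedlings of each of the 31 tested class III peroxidase genes, with standard errors as bars. The 12 that fell (blue) run down to -3.08 for AT4G26010, and the 3 that rose (red) run up to 1.77 for AT4G33420.

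Expansins loosen the wall during growth. EXPA7 and EXPA18, both known from root hairs, fell, and the other 6 of 8 tested were not called (median -0.40). EXPA7, the root marker, went from 104, 112 and 76.9 to 37.4, 41.5 and 44.3, with -1.18 (SE 0.18, adjusted p = 9.42e-05). EXPA18 went from 94.4, 128 and 83.9 to 52.0, 57.6 and 36.0, with -1.03 (SE 0.18, adjusted p = 0.000379). The groups did not overlap for either gene, which for EXPA7 was a condition of its place among the largest drops. Of 6 tested extensins and root hair wall proteins, out of 8, 3 fell and 0 rose, with a median of -0.74. HRGP1 fell by 0.96 and AT1G23720 fell by 0.94. AT3G54580 had treated signals of 19.8, 13.5 and 27.0 against 54.1, 53.9 and 50.8, and its drop of -1.32 (SE 0.41, adjusted p = 0.0339) was no longer called without a filter (0.0938), without the trend (0.0537), or without untreated replicate 1, 2 or 3 or treated replicate 1 or 2. Extensins share repeated sequence, so their probe sets may share signal.

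Xyloglucan endotransglucosylases, which cut and rejoin wall xyloglucan, moved both ways, 2 rising and 1 falling of 6 tested out of 9 (median -0.06). XTH18 rose from 36.1 and 42.4 (replicates 1 and 3) to 422, 313 and 403, and the closely related XTH19 by 0.72. XTH32 went from 257, 265 and 306 to 114, 145 and 149, with -1.01 (SE 0.15, adjusted p = 6.12e-05). Other enzymes of the wall were among the largest drops. GH9C1, an endoglucanase, fell by 1.22 and AT5G04960, a pectin methylesterase, fell by 1.59, from 70.0, 77.7 and 54.4 to 22.1, 19.3 and 19.0.

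The remaining large drops were of other kinds. AT2G43610, of the chitinase family, went from 262, 279 and 239 to 83.5, 124 and 93.0, with -1.37 (SE 0.16, adjusted p = 6.28e-06). AT3G28040, a leucine-rich repeat receptor-like kinase, went from 302, 302 and 284 to 119, 123 and 101, with -1.35 (SE 0.12, adjusted p = 8.26e-08). Both had tightly grouped untreated arrays. AT1G52070, a jacalin-type lectin, fell by 1.42. AT4G28080 fell by 1.18 and AT3G29375 fell by 1.28. Of 3 tested lectins named as jacalins, out of 4, 2 fell, at a median of -0.35. JAL33 went from 1694, 1827 and 1841 to 1230.0, 1399 and 1376, with -0.42 (SE 0.11, adjusted p = 0.00974), a call lost without treated replicate 1 (0.0579). JAL34 had -0.35 (SE 0.10, adjusted p = 0.019), a call lost with quantile normalization (0.0567), without a filter (0.0825), without the trend (0.0541), and without untreated replicate 2 or treated replicate 1 or 3.

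**Figure D4:**
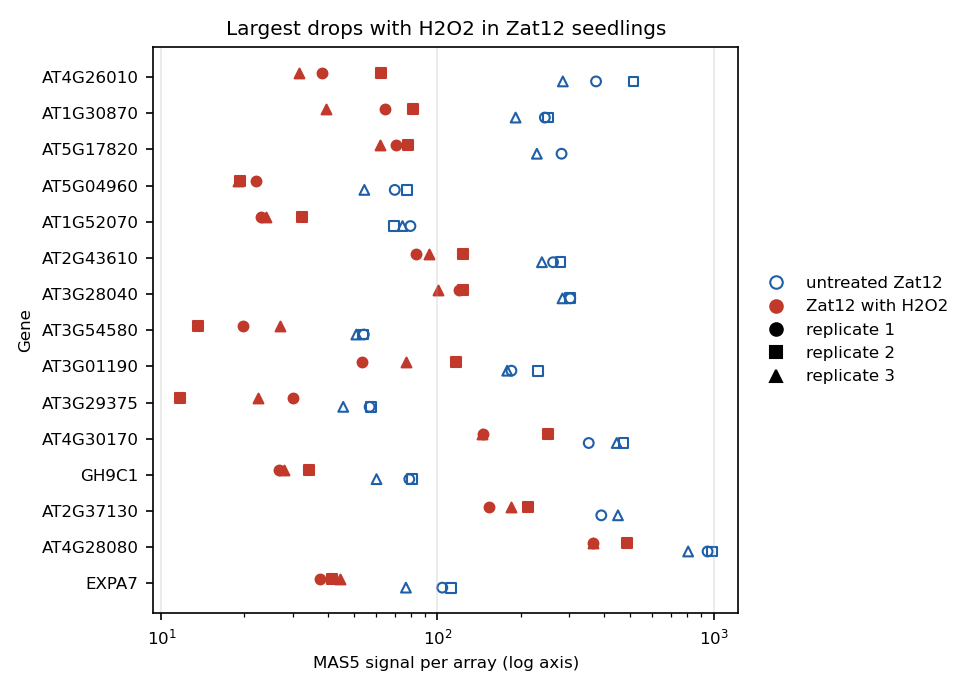
MAS5 signal on each array (log axis) of the 15 named genes with the largest drops, with open symbols for untreated Zat12 and filled symbols for Zat12 with H2O2. AT4G26010 shows the widest gap, and treated replicate 2 (filled squares) is often the treated array nearest to the untreated ones.

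Several groups gave no call. Among 6 late embryogenesis abundant proteins, known from drying seeds, 0 were called by limma and 0 had an unadjusted p below 0.05, with a median of 0.25. The 3 reference genes PEX4, GAPC2 and AT2G28390 had log2 fold changes of 0.07, -0.18 and -0.39, and 0 were called, with 1 at an unadjusted p below 0.05. Of 56 tested plastid-encoded genes, out of 69, 0 were called in limma and 4 had an unadjusted p below 0.05, with a median of -0.17.

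Most probe sets that rose in Zat12 seedlings also rose in wildtype, and drops were shared less often. Of the 550 probe sets raised at least 2-fold, 476 were raised at least 2-fold in wildtype too, which is 86.5% of the Zat12 set and 78.3% of the 608 of wildtype. For drops the overlap was 53, or 46.5% of the 114 and 48.2% of the 110 of wildtype. With a change of any size accepted in wildtype, 537 of the 550 (97.6%) were raised there and 84 of the 114 (73.7%) were lowered. The overlap was described and not tested. The wildtype sets of 608 and 110 were out of 13647 tested probe sets. Without a limit on size, wildtype had 9.59% of tested probe sets raised and 12.4% lowered. At that threshold 920 of the 1114 raised in Zat12 (82.6%) were also raised in wildtype. For lowered probe sets it was 736 of 1244 (59.2%). The difference between the responses was tested as an interaction, and 15 probe sets were called in limma (0.11%), with 971 at an unadjusted p below 0.05. Outside the plastid genome, no named gene called in Zat12 had a called interaction. The lowest adjusted p among these was that of Hop3, which had log2 fold changes of 2.91 in Zat12 and 1.67 in wildtype, a difference of 1.24 (SE 0.24, adjusted p = 0.0589). AT4G26010 had -3.08 and -2.01, with a difference of -1.07 (SE 0.38, adjusted p = 0.56). STZ had 5.15 and 4.53, with a difference of 0.62 (SE 0.37, adjusted p = 0.751).

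All 15 called interactions were below 0, and of the 12 with 1 named gene all 12 were plastid-encoded, none of which was called in Zat12. The largest was psaA, a core protein of photosystem I, with untreated signals of 609, 459 and 302 and treated signals of 339, 207 and 205 in Zat12, which overlapped. Its log2 fold change was -0.84 in Zat12 (adjusted p = 0.219) and 3.42 in wildtype. Of the 3 unnamed probe sets, 1 rose in both genotypes, by 0.87 in Zat12 and 2.28 in wildtype. Its untreated signals were 536, 556 and 589 in Zat12 and 49.5, 52.0 and 46.2 in wildtype, so the smaller rise started from the higher level. Another, with the lowest adjusted p of the interaction (0.000809), fell by 0.88 in Zat12 (adjusted p = 0.0273) and rose by 2.51 in wildtype. The last had -0.43 in Zat12, which was not called, and 2.90 in wildtype. The untreated wildtype arrays stood apart in plastid-encoded genes, which, centred on their mean over all arrays, had a median log2 level of -1.13 to -0.41 there and -0.13 to 0.75 on the other 9, and their 25S control signals of 32.9 to 125 reached lower than the 96.3 to 295 elsewhere. The part of these in the interaction was not tested. The count of 15 was 25, 7 and 6 without treated Zat12 replicate 1, 2 and 3, 7 and 48 without wildtype replicate 2 and 3, and 7 and 9 without wildtype H2O2 replicate 1 and 2.

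**Figure D5:**
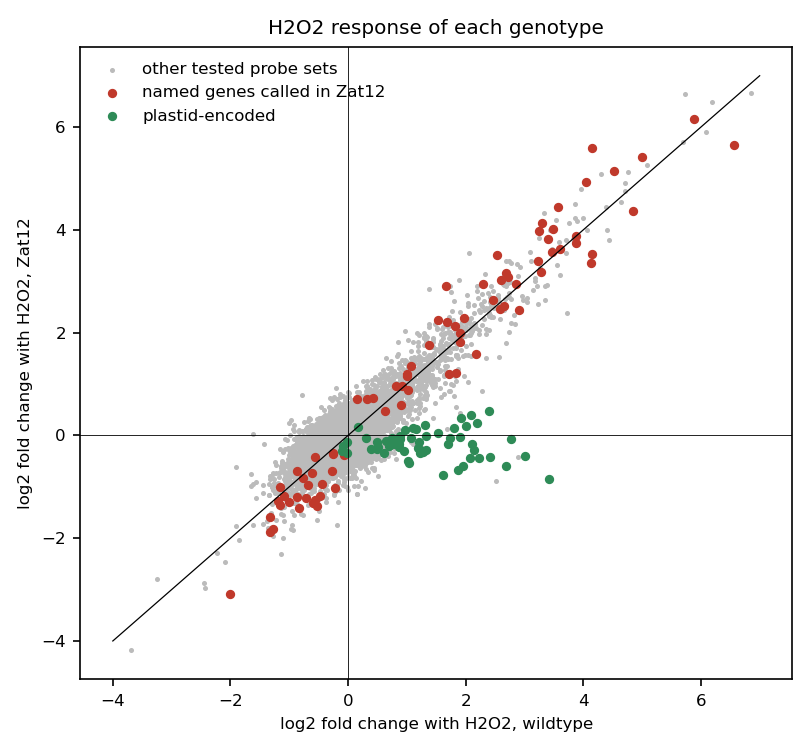
Log2 fold change with H2O2 in wildtype (x axis) and in Zat12 (y axis) for every tested probe set, with named genes called in Zat12 in red, plastid-encoded genes in green and a line at equal change. The red points run along the line, and the green points lie near 0 on the Zat12 axis, from -0.84 to 0.47.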

How the data were processed

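Total RNA of seedlings was hybridised to Affymetrix ATH1 arrays, 3 per group. The deposited values are an intensity per probe set, the linear MAS5 signal, per the submitters' processing notes; the trimmed mean near 100 on every array shows that the authors had scaled them (100.01 to 100.1). For MAS5, no version is stated in the labels, and detection calls were not used here. The number of arrays limits the precision.

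From these values log2(signal + 3) was computed, 3 being the 10th percentile of all values. Probe sets with a mean above the 40th percentile (log2 4.96, signal 28.1) were tested. limma 3.58.1 in R 4.3.3 fitted 4 groups over 12 arrays in 1 model. Its prior had 9.12 degrees of freedom and followed the mean-variance trend. A call is a Benjamini-Hochberg adjusted p below 0.05 over 13647 probe sets. Python 3.11.15, pandas 2.3.3 and matplotlib 3.10.9 did the rest.

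Of 22746 probe sets, besides 64 controls, 13513 were paired with 1 gene, 503 with several and 8730 were unnamed here. For 13436 of the 13513 probe sets the gene was found in the RefSeq table of TAIR10.1, used for names and gene order only. Probe sets of similar gene copies may share signal.

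Members and gene lists were chosen with earlier results of these data known. Of 52 lists, 26 with at least 3 tested members are described, 18 had no named probe set and 8 had 1 or 2 tested members. The search patterns of the cytochrome P450, plastid, ABC transporter and receptor kinase lists were corrected after results had been seen. The named genes are the 15 largest called rises and drops with 1 gene, no overlap of arrays and a mean signal of at least 20 in both groups, up to 4 called members per list, and the 5 largest interactions in each direction. Further list members are given by their log2 fold change, chosen after their values were seen. A planned search of promoters for motifs was not run, since no sequences were used here.

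Tested on simulated arrays of H2O2 in Zat12 with 13647 probe sets, the fit recovered 38.8% of 1.5-fold, 83.6% of 2-fold and 100% of 4-fold changes, and 5.73% of its calls were false. Only 67, 67 and 66 probe sets were given these changes, in a single random draw. In the data 17.3% were called, so these rates may not hold for the measured response. Alternatives covered scaling, offset, filter, trend, samples in the fit, threshold, empty cells, a block for the replicate number, and leaving out each array.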

Additional observations from a re-analysis of the deposited data

Results flagged for a closer look

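The H2O2 response of 5 plastid-encoded genes differed between the genotypes by the interaction term of the limma model. In each the wildtype response was a rise and the Zat12 response was not called. psaA had a difference of -4.27 (SE 0.63, adjusted p = 0.0071). psbC, a photosystem II protein, had 626, 618 and 403 untreated and 519.8, 373 and 344 treated in Zat12, and a difference of -3.42 (SE 0.55, adjusted p = 0.018). psbT, another protein of photosystem II, had a difference of -3.28 (SE 0.48, adjusted p = 0.0071). petL, of the cytochrome b6f complex, had -2.85 (SE 0.53, adjusted p = 0.043). psaB, the partner of psaA in photosystem I, had -2.83 (SE 0.41, adjusted p = 0.0071). The untreated wildtype arrays had lower 25S control signals than most others, and the part of that in these differences was not tested. No call held for any of the 5 without a filter (adjusted p between 0.118 and 0.193) or without the mean-variance trend (0.0583 to 0.19), and those of petL and psbC were lost under further alternatives.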

How the results depend on the processing

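No named gene reversed in the result it was chosen for, and 69 of the 84 kept their call under every alternative in which they were tested. For psaA, psbC, psbT, petL and psaB that result was the interaction. The Zat12 response of petL, which was not called, ran from -0.45 to 0.27 on the log2 scale over the alternatives. The count lowered at least 2-fold was 193 without a filter and 61 with the 60th percentile as filter, which tests fewer dim probe sets. At an adjusted p below 0.01 it was 605 for all lowered probe sets and 6 for the interaction, which had 3 without a filter and 3 without the mean-variance trend; the cause was not tested. Leaving out each array in turn, those of wildtype by a choice made after seeing the data, gave 952 to 1192 raised, 825 to 1519 lowered, 535 to 576 raised and 105 to 163 lowered at least 2-fold, and 6 to 48 interactions. A group left with 2 arrays took its spread from the shared model. With the replicate number as a block, 1157 rose, 1382 fell, 553 rose and 123 fell at least 2-fold and 22 interactions were called; WRKY53 was the only named gene to lose its call. The deviations of same-numbered untreated and treated Zat12 arrays correlated at 0.0789, 0.119 and 0.232, and each array correlated best with its own number, a hint from the data and not from the design, so the numbers were not taken to pair the arrays. Signals near the offset limit the fold changes of dim genes.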

Other observations

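Neighbouring genes, by the order in the RefSeq table of TAIR10.1, were both tested in 2110 pairs. In 12 pairs both genes rose at least 2-fold, in 2 both fell at least 2-fold, and in 1 pair they moved in opposite directions by at least 2-fold. Over all tested probe sets 4.03% rose and 0.835% fell at least 2-fold, and the pair counts were not tested against these shares. The genes that follow were picked with their values in view. The pairs that fell form a run of 3 jacalin-type lectins, AT1G52050 (-1.15), AT1G52060 (-1.12) and AT1G52070 (-1.42). Among the pairs that rose were AER (AT5G16970, 2.52) with AT5G16980 (1.82), and AT2G32020 (1.38) with AT2G32030 (3.39), both acetyltransferases of the GNAT family. A run of 3 neighbours, AT4G27652 (1.10), AT4G27654 (1.09) and AT4G27657 (2.11), rose as well. Neighbouring copies of similar sequence may share probe signal, which was not tested.

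The largest changes of all were in probe sets unnamed here. The largest rise was from signals of 2.42, 7.45 and 4.11 untreated to 712, 789.7 and 745 treated, and the next was from 4.45, 4.42 and 5.53 untreated to 772, 627 and 684 treated. Both were near the offset without treatment. In the other direction, the largest drop was from 231, 292 and 179.8 untreated to 13.8, 15.8 and 3.68 treated, a log2 fold change of -4.18 (SE 0.43, adjusted p = 1.06e-06), and the next was from 107.7, 130.5 and 73.5 untreated to 2.89, 27.0 and 10.2 treated (-2.98, SE 0.44, adjusted p = 7.84e-05).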
